A study of Equus caballus with 26 samples.

Results

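The genes described here code for the proteins of the cytosolic ribosome. They were taken as every gene of the array whose gene name is RPL, RPS or RPLP followed by a number, or RPSA, or whose description names such a ribosomal protein, leaving out the RPS6K kinases and the mitochondrial MRPL and MRPS proteins. The rule found 83 gene names for 72 gene symbols, of 24415 gene names on the array. Each symbol was read from its brightest probe, and 71 of the 72 were well above background on enough arrays to be tested. The exception was RPL12, whose probe was described as an L12-like gene and rose well above background on none of the 26 arrays. The set holds 37 genes of the large 60S subunit, 3 of its stalk (RPLP0, RPLP1 and RPLP2), 28 of the small 40S subunit, and 4 paralogues: RPL3L, RPL7L1, RPL22L1 and RPL26L1.

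Whole-blood RNA was measured in horses before (T0, at rest) and just after (T1) a 160 km endurance ride, on 1-colour equine arrays with 60-base probes. The deposited description gives Arabian and part-Arabian horses and an age of 10 ± 2 years (SEM) over all those recruited, and no agent was given. The experimental set analysed here held 3 geldings, numbered 2, 32 and 41, each sampled at both times. The validation set held other horses sampled at 1 time each, 7 at T0 (3 females and 4 geldings) and 13 at T1 (3 females and 10 geldings). All 13 horses sampled at T1 had completed the ride, whereas the study states that most of its validation horses sampled at T0 did not finish. The validation comparison is therefore between different animals, and time cannot be told apart from whatever else separates finishers from non-finishers. Blood is a mixture, so in these samples fewer cells of a type and less RNA per cell cannot be told apart.

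A ribosome joins a small subunit, which reads the messenger RNA, to a large subunit, which forms the peptide bonds, and each subunit is an RNA scaffold dressed with many small proteins. The mRNAs of these proteins begin with a short pyrimidine tract, the 5′ TOP, through which mTOR signalling sets how much of them is translated. Lymphocytes are known to carry far more ribosomal protein mRNA than mature neutrophils, which make little new protein. A few genes have paralogues: RPL3L is a striated muscle form of RPL3, and RPL22L1 is a relative of RPL22.

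RPL3 and RPL3L gave the clearest contrast of the set, since 1 was lower and the other higher at T1. Their probes are shown so that the difference between the paralogues can be seen. Capitals mark bases that are identical when the probes are laid side by side without gaps, which were 22 of 49 overlapping bases (44.9%). Probe coordinates are on EquCab1, the build named in the file headers.
RPL3: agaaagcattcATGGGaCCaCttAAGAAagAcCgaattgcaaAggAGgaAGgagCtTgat
RPL3L: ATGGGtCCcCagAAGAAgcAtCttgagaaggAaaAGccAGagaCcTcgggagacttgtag

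The RPL3 probe lies at chr28:36024039-36024358 and the RPL3L probe at chrUn:73754409-73754764, both listed in descending order. The listed span of each is longer than its 60 bases. The probe of RPL35, a core member with a strongly negative change in the validation set, and those of the 2 core members with the most positive change, RPS3A and RPL26, are given next. Capitals mark G and C, the base composition against which the changes are set at the end.
RPL35: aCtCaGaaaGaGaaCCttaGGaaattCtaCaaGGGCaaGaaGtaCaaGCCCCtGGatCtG
RPS3A: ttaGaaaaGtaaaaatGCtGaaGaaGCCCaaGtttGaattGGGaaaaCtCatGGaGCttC
RPL26: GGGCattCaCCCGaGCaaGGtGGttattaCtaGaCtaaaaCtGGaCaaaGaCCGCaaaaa

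RPL35 is read at chr25:9857699-9860278, listed in ascending order. RPS3A is read at chr2:67807629-67807856 and RPL26 at chr11:50053784-50056423, both listed in descending order. G and C made up 45% of the RPL35 and RPL26 probes and 36.7% of the RPS3A probe.

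Levels below are log2 of the scanner's processed signal minus the 75th percentile of the array, so a level of 0 is the 75th percentile, and levels of different probes are not compared. Between 60.4% and 75.4% of the spots were well above background on an array. Horse 47 of the validation T0 group stood apart from the other T0 horses. Its mean level of the neutrophil genes was 4.79, within the T1 range of 4.55 to 5.49, and its T cell mean was -0.75, the lowest of the T0 group. The array of horse 34 (validation T1) was saturated at 24 of the 71 member probes and every other array at none, so its values of those genes are lower bounds. Results on the validation set are therefore also given without these horses.

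The members were lower after the ride in both sets. In the validation set the median over the 71 members on an array averaged 6.98 ± 0.37 over the 7 T0 horses and 6.42 ± 0.41 over the 13 T1 horses (mean ± SD). The T0 horses ran from 6.31 (horse 47) through a median of 7.0 to 7.41 (horse 13), and the T1 horses from 5.90 (horse 17) through 6.48 to 7.29 (horse 4). The groups overlapped: horse 47 lay below 7 of the 13 T1 horses, and horse 4 above 5 of the 7 T0 horses. In the experimental set the T0 medians were 7.09 (horse 2), 6.09 (horse 32) and 7.14 (horse 41), and the T1 medians were 5.92, 5.98 and 6.49. Horse 32 was the exception, since its T0 level was already near the T1 levels of the others. Its T0 array had the highest 75th percentile of all arrays, 9.76 on the log2 scale. After quantile normalization, which gives every array the same distribution of signals, the median of horse 32 went from 15.9 to 15.1, and the 3 T0 arrays (15.9 to 16.3) lay above the 3 T1 arrays (15.1 to 15.7).

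**Figure D1:**
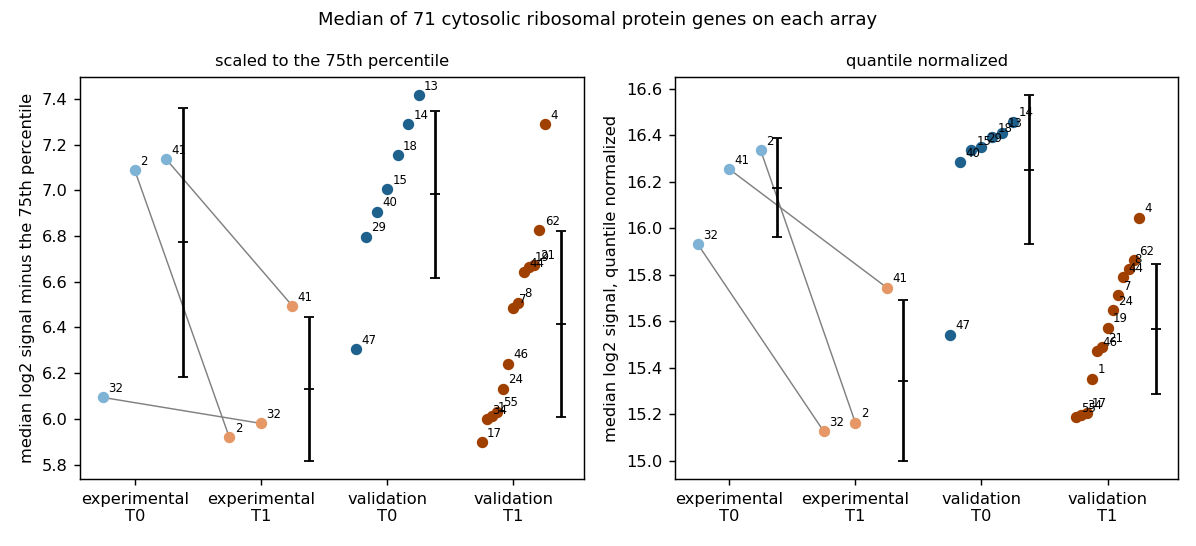
Median over the 71 ribosomal protein genes on each array, scaled to the 75th percentile (left) and after quantile normalization (right), both in log2 units, with horse numbers beside the points, group mean and SD in black, and lines joining the arrays of an experimental horse. Horse 47 lies low among the T0 horses and horse 4 high among the T1 horses on both scales, and horse 32 falls clearly only on the right.

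Between the validation groups 39 of the 71 members (54.9%) were lower and 1 was higher at T1 at an adjusted p under 0.05 in limma. Over all 17404 gene names tested, 23.9% were lower and 20.3% higher. The median log2 change of the members was -0.54, a T1 level at 68.7% of T0, beside -0.07 over all gene names. The change was below 0 for 64 of the 71, beside 54% of all gene names. Without horse 47, 47 members were lower (25.9% of all gene names) and the median was -0.65. Without horses 34 and 47 together, 47 were lower (4427 of 17404 gene names) and the median was -0.59. Without horse 13 the count fell to 25 (3680 of 17404 gene names). Under other scalings 54 members were lower after quantile normalization (23.9% of all gene names), 56 with normexp background correction (23.5%) and 55 in the deposited series values (23.3%). By subunit, 24 of the 36 60S genes tested, 14 of 28 40S genes, 1 of 3 stalk genes and 0 of 4 paralogues were lower, with medians of -0.56, -0.53, -0.39 and 0.05. No member had every T1 value under every T0 value (0.753% of all gene names did). Without horse 47, RPL3, RPL10A, RPS2 and RPSA did, 5.63% of the members beside 6.28% of all gene names.

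**Figure D2:**
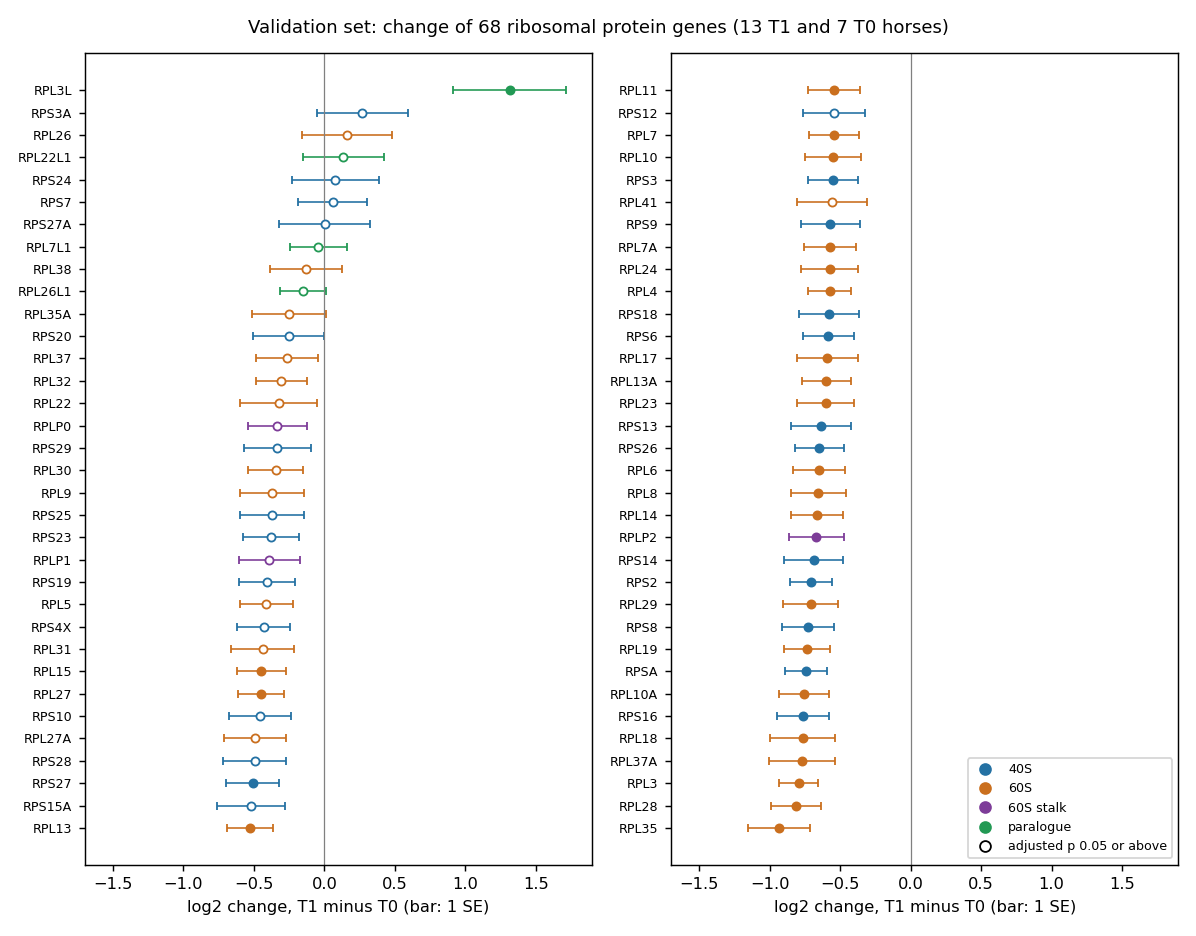
Log2 change (T1 minus T0, bar of 1 SE) of 68 of the 71 genes in the validation set, coloured by subunit and filled where the adjusted p was under 0.05. The 36 plotted genes called lower crowd between -0.45 and -0.93, and RPL3L is the 1 filled point above 0.

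Among the 60S genes, RPL3, a protein close to the centre where peptide bonds form, ran from 7.22 through 7.92 to 8.17 at T0 and from 6.63 through 7.08 to 7.39 at T1. Only horse 47 at T0 lay within the T1 range. Its log2 change was -0.79 (SE 0.14, adjusted p = 0.000122), the smallest adjusted p of the members. RPL35, which sits beside the exit of the peptide tunnel, ran from 5.04 through 5.97 to 6.70 at T0 and from 4.23 through 5.04 to 5.98 at T1, a change of -0.93 (SE 0.22, adjusted p = 0.00167). RPL28 changed by -0.81 (SE 0.17, adjusted p = 0.000835) and RPL29 by -0.71 (SE 0.20, adjusted p = 0.0059).

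RPL5 and RPL11 with 5S RNA bind MDM2 and so tie ribosome assembly to p53. On the 75th-percentile scale they stood on different sides of the threshold. RPL11 fell by 0.54 (SE 0.18, adjusted p = 0.0215), and RPL5 had a change of -0.41 (SE 0.19, adjusted p = 0.0779). RPL5 did pass after quantile normalization (adjusted p = 0.00454), with normexp (0.00239) and in the series values (0.00277). RPL10, one of the last proteins to join the subunit, fell by 0.55 (SE 0.20, adjusted p = 0.0285). RPL13A, a part of the complex that represses inflammatory mRNAs in monocytes, fell by 0.60 (SE 0.18, adjusted p = 0.00872). RPL22 had a change of -0.32 (SE 0.27, adjusted p = 0.357), with T0 levels of 3.15 to 4.5 inside the T1 range of 2.86 to 4.99.

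The stalk recruits the elongation factors to the ribosome. RPLP2 ran from 6.88 through 7.85 to 8.36 at T0 and from 6.47 through 7.01 to 7.77 at T1, and fell by 0.67 (SE 0.19, adjusted p = 0.00811). RPLP0 and RPLP1 had changes of -0.33 (SE 0.21, adjusted p = 0.201) and -0.39 (SE 0.22, adjusted p = 0.151). RPLP1 did pass after quantile normalization (adjusted p = 0.00149), with normexp (0.00148) and in the series values (0.00401). Among these scalings RPLP0 passed only with normexp (adjusted p = 0.00436). All 3 stalk genes were saturated on the array of horse 34.

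Among the 40S genes, RPSA, also known as the laminin receptor, ran from 6.43 through 7.21 to 7.47 at T0 and from 5.84 through 6.39 to 6.80 at T1. Horse 47 alone of the T0 horses lay within the T1 range, and the log2 change was -0.74 (SE 0.15, adjusted p = 0.000453). RPS14, whose loss causes the anaemia of the human 5q- syndrome, ran from 7.34 through 8.19 to 8.76 at T0 and from 6.56 through 7.55 to 8.14 at T1, a change of -0.69 (SE 0.21, adjusted p = 0.0117). RPS6, the phosphorylation target of the S6 kinases, fell by 0.58 (SE 0.18, adjusted p = 0.0127), and RPS27 fell by 0.51 (SE 0.19, adjusted p = 0.0337).

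RPS19, the gene most often mutated in Diamond-Blackfan anaemia, and the X-linked RPS4X did not pass on the 75th-percentile scale. Their changes were -0.41 (SE 0.20, adjusted p = 0.106) and -0.43 (SE 0.19, adjusted p = 0.0673). Both passed after quantile normalization (adjusted p = 0.0215 and 0.00191). They also passed with normexp (0.00866 and 0.00106) and in the series values (0.0137 and 0.00132).

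Of the 4 paralogues, RPL3L passed the test and the other 3 did not, as 28 of the 67 core genes also did not. RPL3L was the only member called higher, with levels of -5.88 through -4.98 to -3.79 at T0 and -5.35 through -3.35 to -1.88 at T1. The log2 change was 1.31 (SE 0.40, adjusted p = 0.0108), while RPL3 fell. Its signal was dim, and the groups overlapped, horse 24 being the lowest of T1. With normexp background correction the change was 0.55, still past the threshold, and with a lymphocyte score in the fit (described below) it was 0.07 (SE 0.65, adjusted p = 0.956). RPL22L1 (0.13, SE 0.29), RPL7L1 (-0.04, SE 0.20) and RPL26L1 (-0.15, SE 0.17) did not pass, with adjusted p of 0.736, 0.879 and 0.484.

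In 5 core members the change was not below 0 on the 75th-percentile scale: RPS3A (0.27, SE 0.32), RPL26 (0.16, SE 0.32), RPS24 (0.08, SE 0.31), RPS7 (0.06, SE 0.24) and RPS27A (0.000126, SE 0.32), where RPS27A codes for a fusion of ubiquitin and a ribosomal protein. They were singled out after their values were seen, and their adjusted p ran from 0.53 for RPS3A to 1 for RPS27A. RPS3A ran from 2.96 through 3.80 to 4.58 at T0 and from 2.62 (horse 34) through 3.88 to 5.64 (horse 4) at T1, so the T0 horses lay inside the T1 range. RPL26 ran from 3.59 through 4.4 to 5.22 at T0 and from 3.35 through 4.34 to 5.95 at T1, with horse 34 lowest and horse 4 highest again. These signs depended on the scaling. After quantile normalization the change was -0.10 for RPL26, -0.20 for RPS24, -0.23 for RPS7 and -0.27 for RPS27A, and all 4 were also below 0 with normexp and in the series values, while RPS3A was at 0.06 after quantile normalization.

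These genes followed each other closely from horse to horse. With each time point's mean removed, Pearson's r with RPS3A over the 20 validation arrays was 0.982 for RPL26, 0.979 for RPS24, 0.949 for RPS27A and 0.942 for RPS7, beside 0.424 for RPL3. Of the other 70 members, those 4 had an r with RPS3A of at least 0.85 both among the 7 T0 and among the 13 T1 horses. The median r over the 70 was -0.24 at T0 and 0.74 at T1, and 0.17 and 0.66 after quantile normalization. For RPL3 the T0 value was -0.08, and 0.63 after quantile normalization, so the sign at T0 depended on the scaling. Outside the set, the named genes most like RPS3A were SNRPD1 (0.956), a spliceosome protein, COX6C (0.932) and COX7B (0.923), subunits of cytochrome c oxidase, and TRAPPC2 (0.919). The arrays share preparation and scaling, so these are descriptions only.

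**Figure D3:**
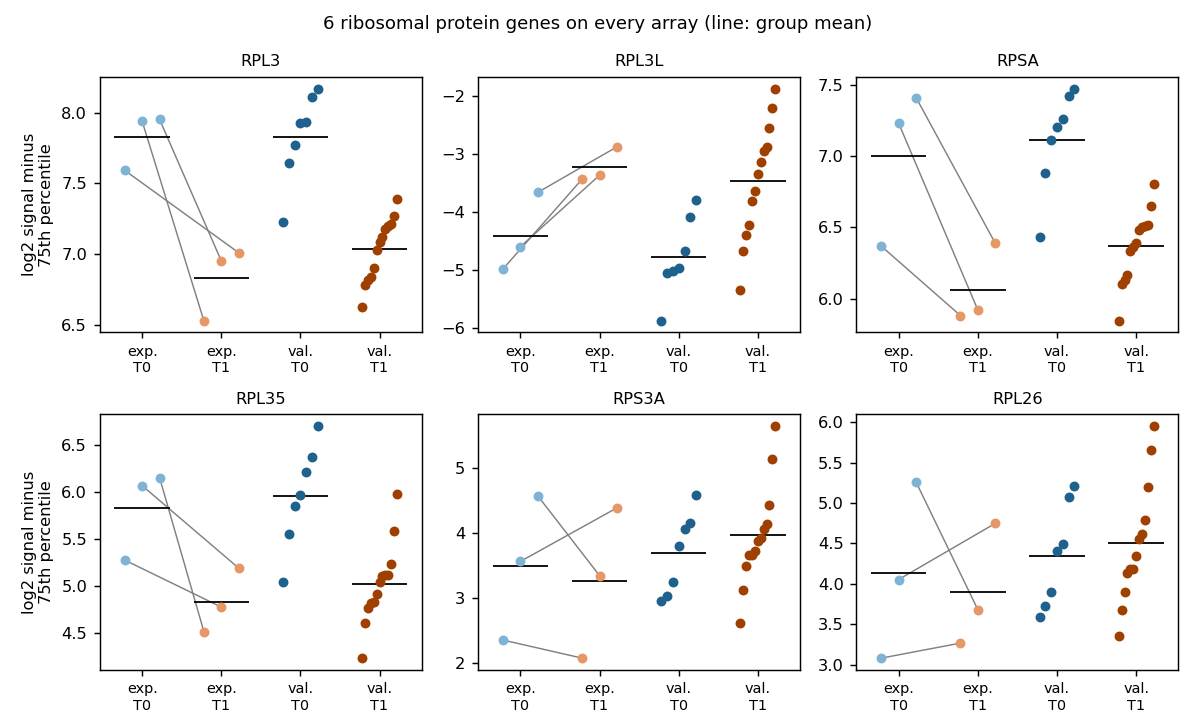
Log2 level (minus the array's 75th percentile) of RPL3, RPL3L, RPSA, RPL35, RPS3A and RPL26 on every array, with group means as lines and the arrays of an experimental horse joined. RPL3, RPSA and RPL35 fall in all 3 joined horses, RPL3L rises in all 3, and RPS3A and RPL26 spread widely within each group.

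Over all 2485 pairs of members, the median r between horses was 0.773 at T0 and 0.78 at T1, and the mean r was 0.596 and 0.68, beside 0.0218 and 0.0272 over all pairs of gene names. After quantile normalization the mean r of the members was 0.631 and 0.388. At T0, RPL3L, RPL26, RPS3A and RPS24 followed the other members least, and at T1 RPL7L1, RPL18 and RPS9 were among those that did so least.

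Ribosomal protein genes have many processed copies, and a probe may also read a near-identical copy, so the level of a single gene is uncertain to that extent. In 44 members with 2 or more probes above background, all probes of 42 changed the same way in the validation set, with a median range of 0.057 between probes. RPS27A was among the exceptions. Second gene names existed for 11 symbols. Their changes were close for RPS9 (-0.57 and -0.56) and for RPL23 (-0.60 and -0.63). The second gene name described as RPS27 had a change of 0.20, against -0.51 for the one used. RPS27L, a paralogue of RPS27, was not found by name, and the second gene name may be RPS27L, because the chromosome listed for its probe is the one on which RefSeq places that gene.

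Among the experimental horses 0 of 71 members passed in either direction, in a limma fit that blocks on the horse (3.95% of 17490 gene names were lower and 6.16% higher), and 16 were lower and 1 was higher at an unadjusted p under 0.05 (13.6% and 16.2% of all gene names). The median log2 change was -0.61, beside 0.03 over all gene names, and 69 of the 71 changes were below 0 (48.4% of all gene names). The count depended on the scaling: 7 members were lower after quantile normalization, 27 with normexp background correction and 29 in the deposited series values, beside 5.87%, 7.06% and 6.71% of all gene names. In 13 members (18.3%) every T1 value lay under every T0 value, beside 17.6% of all gene names.

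The 3 horses differed. In horse 2, 69 of 71 members were lower at T1 (56.9% of all gene names), with a median change of -1.26. In horse 41, 62 were lower (40.3%), with a median of -0.68. In horse 32, 38 were lower (50.1%), with a median of -0.03, so its share was close to that of all gene names. After quantile normalization the medians were -1.22, -0.46 and -0.66. All 3 horses were lower in 31 members (43.7%), beside 25.6% of all gene names. Without horse 2 the median over members was -0.31, and without horse 32 it was -0.95.

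In horses 2, 32 and 41, taken in this order, RPL3 changed by -1.41, -0.58 and -1.0 (mean -1.0, SE 0.33, adjusted p = 0.0842), and RPSA of -1.31, -0.49 and -1.02 (mean -0.94, SE 0.33, adjusted p = 0.0974). RPL29 and RPL35 each had a mean change of -1.01. RPL3L was higher in all 3 horses, by 1.23, 1.55 and 0.78 (mean 1.19, SE 0.32, adjusted p = 0.0521). RPL26L1 had a mean change of 0.25 (SE 0.34) and RPL7L1 of -0.04 (SE 0.34). RPS3A had changes of -1.22, -0.28 and 0.82, and RPL26 of -1.58, 0.19 and 0.70. Both genes were lower at T1 in horse 2 and higher in horse 41, whereas RPL3 was lower in all 3 horses.

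Among the other genes chosen by role, 0 passed. The stalk genes had mean changes of -0.38 (RPLP0), -0.46 (RPLP1) and -0.85 (RPLP2). In the 60S subunit the changes were -0.55 for RPL5, -0.68 for RPL10, -0.61 for RPL11, -0.71 for RPL13A, -0.31 for RPL22 and -0.99 for RPL28. In the 40S subunit they were -0.28 for RPS4X, -0.54 for RPS6, -0.80 for RPS14, -0.49 for RPS19, -0.58 for RPS27 and -0.56 for RPS27A. RPL22L1 changed by -0.72 in horse 2, by -1.46 in horse 32 and by 1.22 in horse 41, the most uneven of the members.

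**Figure D4:**
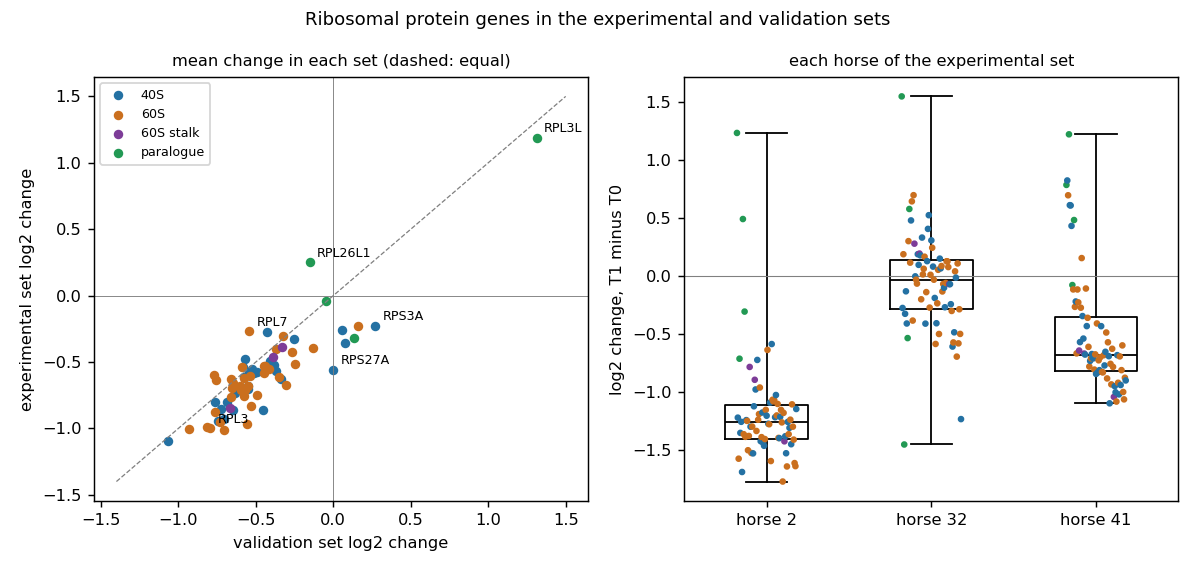
Left, the log2 change of each gene in the validation set (horizontal) and the experimental set (vertical), with the dashed line at equal change; right, the change in each experimental horse, with boxes for the quartiles, whiskers for the full range and points for the 71 genes. Most core genes lie below 0 in both sets, RPL3L lies above 0 in both, and the members of horse 32 are centred near 0.

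The difference between the 2 sets' changes was tested in a fit over all 26 arrays. No gene name passed (0% in each direction), no member had an unadjusted p under 0.05, and every adjusted p of the members was 1. The member differences (experimental minus validation) ran from -0.56 for RPS27A to 0.40 for RPL26L1, with a median of -0.12 and a median SE of 0.43. With 3 horses in 1 set, differences within that error were not detectable. Without horse 2 the median was 0.17.

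Arrays were scanned on 8 days, 5 of which held validation horses of both times. Within those days the median difference of the members (T1 minus T0) was -0.70 (1 T0 and 4 T1 horses), -0.71 (1 and 2), -0.93 (2 and 1), 0.01 (2 and 1, with horse 47 at T0) and -0.17 (1 and 1). After quantile normalization these were -0.57, -0.74, -0.69, -0.19 and -0.89. With scan day as a term, 22 members were lower (22% of all gene names) and the change was below 0 for 70 of 71, with a median of -0.51. In the experimental set the T0 and T1 arrays of each horse lay on different slides and were scanned on different days. Within a horse, time therefore cannot be told apart from slide and scan day.

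Markers of blood cell types moved with time in the same arrays. The shares of all gene names were 23.9% lower and 20.3% higher in the validation set, and 3.95% and 6.16% in the experimental set. In the validation set 16 of 17 T cell genes, 13 of 14 B cell genes and 7 of 10 NK cell genes were lower (1 NK cell gene, NCR1, was higher by 1.34), while 10 of 13 neutrophil genes and 5 of 6 immature neutrophil genes were higher. The summed level of the T cell genes ran from 4.59 to 5.78 at T0 and from 3.82 to 4.81 at T1. The B cell sum ran from 4.02 to 5.35 and from 2.61 to 4.5, and the NK cell sum from 4.43 to 7.27 and from 3.49 to 4.78. The neutrophil sum ran from 7.80 to 9.77 and from 9.27 to 10.98, and the immature neutrophil sum from 2.57 to 7.64 and from 6.89 to 8.86. In the experimental set 9 of 17 T cell, 6 of 14 B cell and 7 of 10 NK cell genes were lower, and 8 of 13 neutrophil genes were higher. Of the 9 monocyte genes tested, 3 were higher and 1 lower in the validation set. Of 6 erythroid genes 2 were higher and 1 lower, with HBB, the beta chain of haemoglobin, higher by 2.25 (adjusted p = 0.0115), and of 6 platelet genes 2 were higher. The erythroid sum ran from 3.74 to 8.36 at T0 and from 5.44 to 9.81 at T1, and the platelet sum from 1.51 to 2.74 and from 1.41 to 2.68. In the experimental set 1 of 7 erythroid genes was higher, HBB by 2.52 (adjusted p = 0.0433), and 2 were lower. The part of neutrophils, monocytes, red cells and platelets in the members' change was not tested.

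A lymphocyte score was taken as the mean level of the T and B cell genes on an array. It ran from -0.96 (horse 47) to 0.18 at T0 and from -2.27 to -0.76 at T1 in the validation set, so only horse 47 lay within the T1 range. Horse 4, highest of the T1 horses in the members, had a score of -2.25, and horse 32 at T0, with the highest score at 0.23, was the lowest T0 array in the members on this scale. After quantile normalization horse 47 (15.5) was the lowest T0 array and horse 32 was at 15.9. In a fit with time as a term, 0 of 71 members had a slope on the score past the threshold (5.02% of gene names negative, 10.4% positive). The median slope was -0.23, and 62 were negative. The direction depended on the scaling, with medians of 0.13 (quantile), 0.23 (normexp) and 0.16 (series values).

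With the lymphocyte score in the fit, 0 of 71 members passed as lower or higher at T1 (0.0689% and 0.0517% of gene names), while 48 had a change below 0 at an unadjusted p under 0.05 (7.06% of gene names). The median change was -0.78, with a median SE of 0.35, and 67 were below 0 (40.4% of gene names). This fit rested on horse 47, the only T0 horse within the T1 range of the score. Without it the scores of the groups did not overlap (-0.46 to 0.18 at T0), so that time and score cannot be told apart and the fit extrapolates. Its values were then 54 members lower (7.62% of gene names) with a median of -1.28, and after quantile normalization 22 lower (7.47% of gene names) with a median of -0.79. The median was below 0 in every alternative tried, between -0.33 and -1.28. All of these fits share the nearly separate scores of the groups, so the sign does not tell time and score apart.

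**Figure D5:**
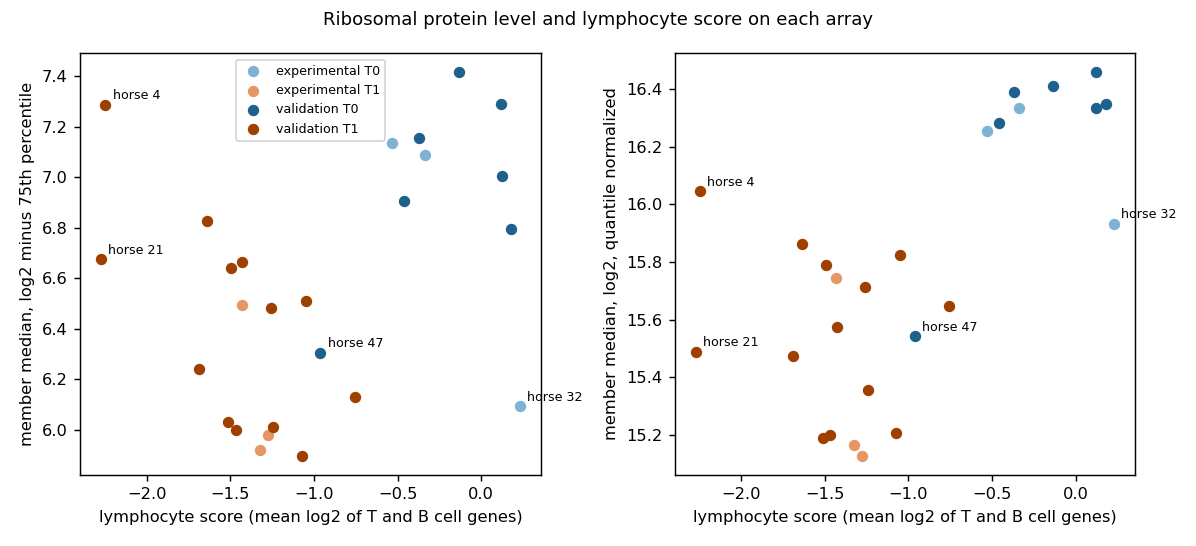
Median level of the 71 ribosomal protein genes, scaled to the 75th percentile (left) and quantile normalized (right), against the lymphocyte score of the same array, in log2 units and coloured by group. The score is on the 75th-percentile scale in both panels. T0 and T1 arrays separate along the score apart from horse 47. Within the T1 group horses 4 and 21, with the lowest scores, are not the lowest in ribosomal protein level. Their arrays had low 75th percentiles (8.74 and 8.80 in log2), with 62% and 60.4% of spots well above background.

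Other genes of the pathway moved to differing degrees. Over all gene names, 23.9% were lower and 20.3% higher in the validation set, and 3.95% and 6.16% in the experimental set. Of 27 other translation genes tested (elongation and initiation factors and further 5′ TOP mRNAs), 15 were lower and 2 higher in the validation set (median -0.42), and 1 was lower in the experimental set (median -0.40). EEF2, which moves the ribosome along the mRNA, fell by 0.47 (SE 0.15, adjusted p = 0.0121), and NPM1, a nucleolar chaperone, fell by 0.81 (SE 0.17, adjusted p = 0.000817). EEF1A1, which delivers the aminoacyl-tRNA, had a change of -0.34 (adjusted p = 0.223). PABPC1 (-0.06, adjusted p = 0.759) and TPT1 (0.20, adjusted p = 0.435), both with 5′ TOP mRNAs, did not pass. The 2 higher were EIF4A2 (0.94, adjusted p = 6.3e-05), a helicase of translation initiation, and VIM (0.78, adjusted p = 0.00337), which codes for the filament protein vimentin.

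Of 44 ribosome biogenesis genes tested, 30 were lower and 0 higher in the validation set (median -0.59), and 0 passed in the experimental set (median -0.63). Of 69 mitochondrial ribosomal protein genes, 44 were lower and 0 higher (median -0.50), and 2 were lower in the experimental set (median -0.55). The shares of the mitochondrial and cytosolic proteins called lower were thus close, although their difference was not tested. Of 25 regulators around mTOR, 4 were lower and 3 higher in the validation set, with a median of -0.06. Both shares lay below those of all gene names, 23.9% lower and 20.3% higher. EIF4EBP1, the repressor of cap-dependent translation, fell by 0.98 (SE 0.22, adjusted p = 0.00123), MYC fell by 0.40 (SE 0.15, adjusted p = 0.0345), and MTOR itself had a change of 0.14 (SE 0.39, adjusted p = 0.80). The 3 higher were DDIT4 (2.36, adjusted p = 1.4e-05) and SESN2 (1.19, adjusted p = 0.00028), both stress-induced inhibitors of mTOR complex activity, and RPS6KA1 (0.57, adjusted p = 0.00278). DDIT4 and SESN2 were also higher in the experimental set, by 3.37 and 1.95 (adjusted p = 0.00178 and 0.0168).

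The members' changes were set against the G and C content of their probes. Of the sequences shown above, RPL35 (-0.93) and RPL26 (0.16) both had 45%, but these probes were picked by their changes. The content of the 71 probes ran from 35% to 60%, with a median of 43.3% (45% over all gene names tested). In the validation set the median change was -0.43 in 30 members at 35% to 40%, -0.51 in 17 at 41.7% to 43.3%, and -0.59 in 24 at 45% or more. In these bins 13, 8 and 18 members were called lower, beside 23.9% of all gene names over the bins together. The share of all gene names called lower was not worked out bin by bin, so these counts are not set against it. Over all gene names the medians in the same bins were 0.05, -0.05 and -0.13. Pearson's r over the 71 members was -0.12, and -0.35 without RPL3L, beside -0.11 over all gene names, as a description across genes, which are not independent. Spearman's rank correlation over the 71 members was -0.355, beside -0.128 over all gene names. In the experimental set it was -0.368, beside -0.0456. The part of base composition in the changes was not tested.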

How the data were processed

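RNA from PAXgene whole blood of 26 samples was read on equine custom Agilent arrays labelled with Cy3. The authors deposited scanner files (Feature Extraction 10.7.3.1) whose processed signal is an intensity already corrected for background, and a table of log2 values for the same arrays; the deposited processing notes name limma, and the steps behind that table are not given in the sources used here. Outlier spots were left out, log2 intensity was centred on each array's 75th percentile, spots of 1 probe were averaged, and each gene name was read from its brightest probe. Gene names were tested where well above background on 3 of 6 arrays (experimental set), 7 of 20 (validation set) or 7 of 26 (both). Tests used limma 3.58.1 in R 4.3.3 with Benjamini-Hochberg adjustment over all gene names at 0.05. Horse was a fixed block in the experimental set, since both arrays of a horse come from 1 animal, and a random block in the fit over all arrays; there was no block in the validation set. The correlation of a horse's T0 and T1 deviations was -0.01 (horse 2), 0.21 (horse 32) and 0.19 (horse 41). The best value with another horse was 0.186, 0.174 and -0.0415, so horse 2 was closer to another horse than to itself. Gene names were matched to symbols directly (6768), through RefSeq gene IDs (7599) or accessions (246), of 24415. The members and lists were chosen with earlier results of these data known. Members named with values were 18 symbols chosen by role, where found, and the 4 lowest and 4 highest changes in each set; the values of a few genes are not reported here. The fits were tested on simulated data. The number of arrays limits the precision.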

Additional observations from a re-analysis of the deposited data

Results flagged for a closer look

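NPM1 in the validation T0 group stood out by the level of 1 horse. Horse 47 had a level of 0.50, while the other 6 T0 horses ran from 1.28 to 1.80. The gap exceeded the 95% critical value of Dixon's test for 7 samples. This was 1 of 34 values so tested (the member median and the named genes), and chance flags about 1 in 20. No ribosomal protein gene and not the member median was marked in this way.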

How the results depend on the processing

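The lower T1 level of the members kept its direction in both sets under every alternative tried, but the counts moved, and the cause was not tested. In the experimental set T1 vs T0: members lower numbered 27 with normexp, 7 after quantile normalization and 29 in the series values. They numbered 2 with a filter on every array (1253 of 15472 gene names), 1 with probes averaged (725 of 17249) and 7 with all 26 arrays in 1 fit (1148 of 17889). Members higher numbered 1 with quantile normalization (1005 of 17490 gene names), the array filter (1563 of 15472) and averaged probes (1088 of 17249), and 0 to 1 leaving out each horse. The horse is the pairing in this set. With no replicate block 1 member was lower (777 of 17490 gene names), against 0 with it (691). The scan day as a random block could not be estimated there and was not run. In the validation set T1 vs T0: members lower numbered 56 with normexp, 54 after quantile normalization and 55 in the series values, 22 with scan day, 59 after quantile normalization without horse 47 and 25 (without horse 13) to 49 (without horse 4) leaving out each horse; with the lymphocyte score 0 were lower and 0 higher. The median difference between sets ran from -0.42 to 0.17 leaving out horses in turn. The slope on the lymphocyte score had a median of 0.23 (6 members positive) with normexp, 0.13 (2) after quantile normalization and 0.16 (2) in the series values. Of 17404 gene names, 621, 541 and 637 were positive there. Leaving out horse 34 or 47 the median was -0.23 to -0.49, with 0 to 12 members negative and 0 to 1 positive. Without horse 47, 696 gene names were negative and 2289 positive. After quantile normalization without horse 47, 1 member was positive, beside 777 gene names. With the score in the fit the median was -0.33 with normexp, -0.36 after quantile normalization and -0.33 in the series values. Leaving out horse 34 or 47 it was -0.72 to -1.28 (0 to 54 lower). With B cell genes alone 1 member was lower (312 of 17404 gene names), and 22 were after quantile normalization without horse 47 (1300).

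The sign of the change turned for some named genes. In the experimental set RPL22L1 was 0.018 (normexp) and 0.013 (series), PABPC1 -0.31, -0.32 (quantile) and -0.27, MTOR -0.026 (normexp) and -0.034 (series), and RPL26L1 -0.013 (quantile). Leaving out a horse gave MTOR -0.34 to 0.61, PABPC1 -0.19 to 0.33, RPL22 -0.81 to 0.23, RPL22L1 -1.09 to 0.25, RPL26 -0.70 to 0.44, RPL7L1 -0.31 to 0.21, RPS27A -1.05 to 0.0096, RPS3A -0.75 to 0.27 and TPT1 -0.0073 to 0.33. In the validation set RPS27A was -0.29 (normexp), -0.27 (quantile), -0.28 (series) and -0.10 (probes averaged), and RPL26 -0.11, -0.10 and -0.10 in the first 3. With scan day RPL22L1 was -0.020, RPS27A -0.24, RPL26 -0.10, RPS3A -0.0054 and MTOR -0.47. With the lymphocyte score RPS27A was -0.52, RPL26 -0.30, RPS3A -0.26, RPL7L1 0.28, TPT1 -0.34 and MYC 0.072. After quantile normalization without horse 47 RPS27A was -0.41, RPL26 -0.20 and RPS3A -0.037, and without horses 34 and 47 RPS27A was -0.0063. Leaving out a horse gave MTOR -0.0024 to 0.37, RPL22L1 -0.00012 to 0.24, RPL7L1 -0.13 to 0.017 and RPS27A -0.14 to 0.10. Of the other values of named genes, 1276 kept direction and side of the threshold, 79 came to pass it and 44 ceased to. The settings that combine quantile normalization with leaving out horse 47, and that leave out horses 34 and 47 together, were chosen after seeing the data. Depth does not apply to arrays; dim probes such as RPL3L limit the precision.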

Other observations

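The RefSeq table names 7 further symbols of cytosolic ribosomal proteins whose gene name and description on the array do not give them, and which the rule therefore left out. In the validation set RPL23A had a log2 change of -0.77 (adjusted p = 0.00089), RPL34 of -0.62 (adjusted p = 0.0213) and RPL10L of -0.55 (adjusted p = 0.0122). RPL21 (-0.50, adjusted p = 0.0968), RPL36A (-0.05, adjusted p = 0.893) and RPL39 (0.20, adjusted p = 0.509) did not pass. With all 7, 43 of 78 symbols were lower and 1 was higher in the validation set, and 0 of 78 passed in the experimental set.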
